A study of Mus musculus with 139 samples.

Results

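The genes Slc7a14, Prkd1, Kifap3, Ripor3, Rps6ka2 and Ptprz1 were followed across single hair cells of the mouse cochlea, as 6 of the 55335 genes in the table of counts. They were chosen by measured values, because their pooled level was far higher in inner than in outer hair cells in each of 3 regions of the cochlear spiral, so that difference is given here as a description. The cells came from the cochlea at postnatal days 14 to 16, and each sample is 1 cell. Inner hair cells (IHCs) numbered 34 apical, 34 middle and 19 basal cells, and outer hair cells (OHCs) 21, 23 and 8. The labels name no strain, genotype, treatment or animal. Each of the 6 groups of type and region therefore counts as 1 sample, cells are not replicates of it, and no test between groups was made. All 6 genes passed the filter of 5 counts per 1000000 (CPM) in 1 group or more, as did 15214 genes in all.

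IHCs are the receptor cells that release glutamate from ribbon synapses onto the auditory nerve. OHCs change their length with membrane voltage and amplify the vibration that reaches the IHCs. The 6 genes have different known roles. Slc7a14 belongs to the cationic amino acid transporter family and its protein sits in lysosomal membranes. Ptprz1 is a receptor tyrosine phosphatase that carries chondroitin sulphate chains and binds pleiotrophin and contactins. Prkd1 (protein kinase D1) is a kinase switched on by diacylglycerol and protein kinase C, with a role in vesicle budding from the Golgi. Rps6ka2 (RSK3) is a kinase of the ERK pathway. Kifap3 is the non-motor subunit of kinesin-2, a motor that carries cargo along microtubules. Ripor3 is a relative of Ripor2, an inhibitor of the small GTPase RhoA.

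Levels are given as scaled CPM, that is, CPM of a cell's or group's total after TMM scaling, a correction for groups whose totals are taken up by few genes. Totals ran from 71027 to 13576942 counts per cell. In 7 cells the markers of the other hair cell type summed to at least those of the labelled type: 4 apical and 1 middle IHC, and 2 middle OHCs. Apical IHC 8 was the plainest of them, with Otof, the IHC synaptic gene otoferlin, at 0.812 and Ikzf2, an OHC transcription factor, at 3280 scaled CPM. The pooled marker Otof stood at 4673, 2685 and 6370 in IHCs of the apex, middle and base and at 194.3, 23.3 and 0.365 in OHCs. Ocm, the OHC calcium buffer oncomodulin, stood at 255.7, 108.9 and 1.27 in IHCs and at 4912, 3014 and 8084 in OHCs. Pooled values hide weakly marked cells, as the median OHC had Ocm at 4384, 88.8 and 98.6. The 7 OHC markers summed to 1000 scaled CPM in 19 of 21 apical, 11 of 23 middle and 4 of 8 basal OHCs. The 5 IHC markers did so in 31 of 34, 28 of 34 and 17 of 19 IHCs. The basal OHCs are the weakest group, with 8 cells, a scaling factor of 0.384 against 0.984 to 1.43 in the other groups, and connective tissue and blood markers that summed to 37269 and 33827 scaled CPM.

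The genes lie on 6 different chromosomes, so none are neighbours. In the GENCODE M21 annotation of GRCm38, Slc7a14 (ENSMUSG00000069072.9) lies at chr3:31202858-31310378, Prkd1 (ENSMUSG00000002688.8) at chr12:50341231-50649098 and Ripor3 (ENSMUSG00000074577.9) at chr2:167980164-168010618, all on the minus strand. Kifap3 (ENSMUSG00000026585.13) lies at chr1:163779583-163917109, Rps6ka2 (ENSMUSG00000023809.10) at chr17:7170115-7303315 and Ptprz1 (ENSMUSG00000068748.7) at chr6:22875502-23052916, on the plus strand. All are protein-coding, and no other annotated gene shares exonic bases with 5 of them. Exons of Ripor3 share 90 bases with the antisense gene Gm14236, which had 0 to 143 counts in each group, and as no source used here gives the strand setting of the counting, those reads cannot be told apart.

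RefSeq promoter sequences of GRCm38.p6, 250 bases before to 50 after the start, were found for all 6 genes. They are shown for Ripor3 and Rps6ka2, whose pooled level was higher in basal than apical IHCs, and for Ptprz1, whose level was lower. Capitals mark the GC box GGGCGG and the CCAAT box CCAAT, on either strand.
Ripor3, chr2:168010569-168010868, minus strand: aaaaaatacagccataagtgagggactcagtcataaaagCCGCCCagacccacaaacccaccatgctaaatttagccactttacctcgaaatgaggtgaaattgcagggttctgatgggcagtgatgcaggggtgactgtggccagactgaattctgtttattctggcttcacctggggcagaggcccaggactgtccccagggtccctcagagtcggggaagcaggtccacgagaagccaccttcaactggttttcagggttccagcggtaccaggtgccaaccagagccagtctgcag
Rps6ka2, chr17:7169865-7170164, plus strand: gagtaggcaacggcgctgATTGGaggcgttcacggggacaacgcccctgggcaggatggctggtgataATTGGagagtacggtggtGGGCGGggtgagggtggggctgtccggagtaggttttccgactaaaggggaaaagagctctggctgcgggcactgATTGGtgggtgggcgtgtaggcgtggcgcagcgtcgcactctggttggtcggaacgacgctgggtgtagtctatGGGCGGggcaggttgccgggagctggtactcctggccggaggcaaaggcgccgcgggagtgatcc
Ptprz1, chr6:22875252-22875551, plus strand: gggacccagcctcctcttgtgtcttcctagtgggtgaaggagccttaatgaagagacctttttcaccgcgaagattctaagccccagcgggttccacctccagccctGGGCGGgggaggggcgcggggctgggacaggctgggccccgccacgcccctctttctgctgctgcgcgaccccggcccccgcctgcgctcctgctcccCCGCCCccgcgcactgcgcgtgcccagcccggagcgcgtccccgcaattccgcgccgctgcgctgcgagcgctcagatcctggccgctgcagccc
GC content was 53.7% for Ripor3, 64.7% for Rps6ka2 and 71.7% for Ptprz1, against a median of 52.7% over 32851 promoters of the same length. The GC box was in the windows of all 6 genes, with 1 match for Ripor3, 2 each for Rps6ka2 and Ptprz1, 3 for Slc7a14, 6 for Prkd1 and 1 for Kifap3, and 35.7% of all promoters hold it. The CCAAT box matched 3 times in Rps6ka2 and 1 time in Kifap3, and 37.4% of promoters hold it. None of the 6 windows held TATAAA (13.6% of promoters), the T-box letters AGGTGTGA (1.28%) or GGTGTG (19.1%), searched because Tbx2 is an IHC transcription factor, or the E-boxes CAGCTG (16.3%) or CAGATG (17.2%). The general E-box CANNTG, which includes those 2, matched 2 times in Slc7a14 and 3 times in Ripor3, and 72.3% of promoters hold it. These matches describe letters and say nothing of binding.

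Slc7a14 had the largest inner-to-outer ratio of the 6. Among apical IHCs its level ran from 0 to 8872 scaled CPM with a median of 220.5, among middle IHCs from 0 to 3667 with a median of 275.1, and among basal IHCs from 0 to 2721 with a median of 47.5. The median OHC was at 0 in every region, and the highest OHC reached 8.20, 57.25 and 1.32 from apex to base. The groups overlapped at the low end only: 21 of 34 apical, 20 of 34 middle and 14 of 19 basal IHCs lay above the highest OHC of their region, while 9, 4 and 1 IHCs were at 0. Pooled levels were 1241, 632.8 and 556.6 in IHCs against 0.263, 0.678 and 0.456 in OHCs, with log2 ratios of 9.94, 8.56 and 8.58. In OHCs these pooled levels rest on 29, 92 and 5 counts. Single cells held 82.8% of the apical and 65.2% of the middle counts, and with the cell of most counts left out of each group the OHC levels were 0.0466, 0.238 and 0.264. The counting interval of basal OHCs (0.148 to 1.06) overlapped those of apical OHCs (0.176 to 0.377) and middle OHCs (0.547 to 0.832). The basal level can therefore be told apart from neither. These intervals hold no spread between cells.

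Ptprz1, the receptor phosphatase, was read in more OHCs than the other 5 genes. Its level ran from 0 to 3687 scaled CPM with a median of 170.5 in apical IHCs, from 0 to 1990 with a median of 76.3 in the middle and from 0.169 to 1100 with a median of 17.97 in the base. OHC medians were 0.0696, 0.183 and 0.607, and the highest OHCs reached 50.8, 27.1 and 1.32. Of the IHCs, 23 of 34, 18 of 34 and 14 of 19 lay above the highest OHC of their region. Pooled, Ptprz1 stood at 452.9, 283.2 and 171.2 in IHCs and at 2.03, 4.58 and 0.730 in OHCs, giving log2 ratios of 7.23, 5.67 and 6.64. With the cell of most counts left out of each group, the apical and middle OHC levels were 0.643 and 2.10. The highest apical value, 3687, belongs to IHC 8, the cell whose markers go against its label. Without the 7 such cells the pooled apical level was 436.9 in place of 452.9.

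Prkd1 was read in 24 of 34 middle IHCs, against 29 of 34 apical and 17 of 19 basal ones. In the apex it ran from 0 to 3532 scaled CPM with a median of 122.8, and in the base from 0 to 3569 with a median of 126.5. Middle IHCs ran from 0 to 1591 with a median of only 0.687, and 4 of 23 middle OHCs lay above that median. The 5 highest apical IHCs and the 2 highest basal IHCs exceeded 1000 scaled CPM, as did 1 middle IHC. Pooled levels were 497.4, 189.5 and 626.6 against 0.0634, 4.58 and 0.274 in OHCs, log2 ratios of 8.87, 5.09 and 8.95. In basal OHCs all 3 counts lay in 1 cell, so the plain ratio of the CPM values there, taken without the 1 CPM added for the log2 ratios, was 2290 with a counting interval from 783.5 to 11103. Basal IHC 8 held 46.4% of the basal counts, and without it the basal level was 365.6. The middle OHC level was 2.98 without its top cell.

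Rps6ka2, the ERK-pathway kinase, had low medians beside a few high cells. Apical IHCs ran from 0 to 513.9 scaled CPM with a median of 1.21, middle IHCs from 0 to 1510 with a median of 23.3 and basal IHCs from 0 to 1312 with a median of 3.23. OHC medians were 0 and the highest OHCs stood at 3.76, 19.3 and 1.32. The highest OHC was exceeded by 14 of 34 apical, 17 of 34 middle and 14 of 19 basal IHCs. Pooled levels were 78.9, 169.7 and 239.5 in IHCs and 0.145, 1.95 and 0.182 in OHCs, with log2 ratios of 6.13, 5.86 and 7.67. Apical IHC 10 alone held 50.3% of the apical counts, and without it the apical level was 42.5. Middle OHC 4 held 93.9% of the middle OHC counts, and with the cell of most counts left out of each group the middle OHC level was 0.130 and the middle ratio 7.06. The basal OHC value rests on 2 counts, and the plain CPM ratio there, with nothing added, was 1313 with a counting interval from 363.5 to 10842.

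Kifap3, the kinesin-2 subunit, was read in every basal IHC, and 1 OHC decided its ratio in the middle. Apical IHCs ran from 0 to 3279 scaled CPM with a median of 212.1, middle IHCs from 0 to 807.6 with a median of 78.2, and basal IHCs from 1.34 to 3101 with a median of 99.2. Middle OHC 2 stood at 311 scaled CPM and held 95.7% of the 4996 middle OHC counts, while its Otof was 0.390 and its Ocm 4754. Only 8 of 34 middle IHCs lay above that cell, against 19 of 34 apical and 12 of 19 basal IHCs above the highest OHCs of their regions, at 24.2 and 7.92. Pooled levels were 826.7, 258.9 and 657.9 against 0.807, 36.8 and 0.639, log2 ratios of 8.84, 2.78 and 8.65. With the cell of most counts left out of each group, the apical and middle OHC levels were 0.0561 and 1.79 and the middle ratio 6.36.

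Ripor3 stood apart by its basal level. Apical IHCs ran from 0 to 656 scaled CPM with a median of 5.86, middle IHCs from 0 to 483.6 with a median of 13.6, and basal IHCs from 0 to 4241 with a median of 5.44. The 3 medians were close, while 5 basal IHCs and no apical or middle IHC exceeded 1000 scaled CPM. OHC medians were 0 and the highest OHCs stood at 2.23, 40.8 and 1.32, and 18 of 34 apical, 12 of 34 middle and 14 of 19 basal IHCs lay above them. Pooled levels were 82.4, 70.8 and 744.7 in IHCs and 0.0997, 2.87 and 0.0912 in OHCs, log2 ratios of 6.25, 4.21 and 9.42. Basal OHCs held 1 count, so the plain CPM ratio there, with nothing added, was 8165 with a counting interval from 1465 to 322495. Middle OHC 1 held 97.7% of the middle OHC counts, and with the cell of most counts left out of each group the middle OHC level was 0.0712, the apical IHC level 53.8 and the middle ratio 5.78.

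**Figure D1:**
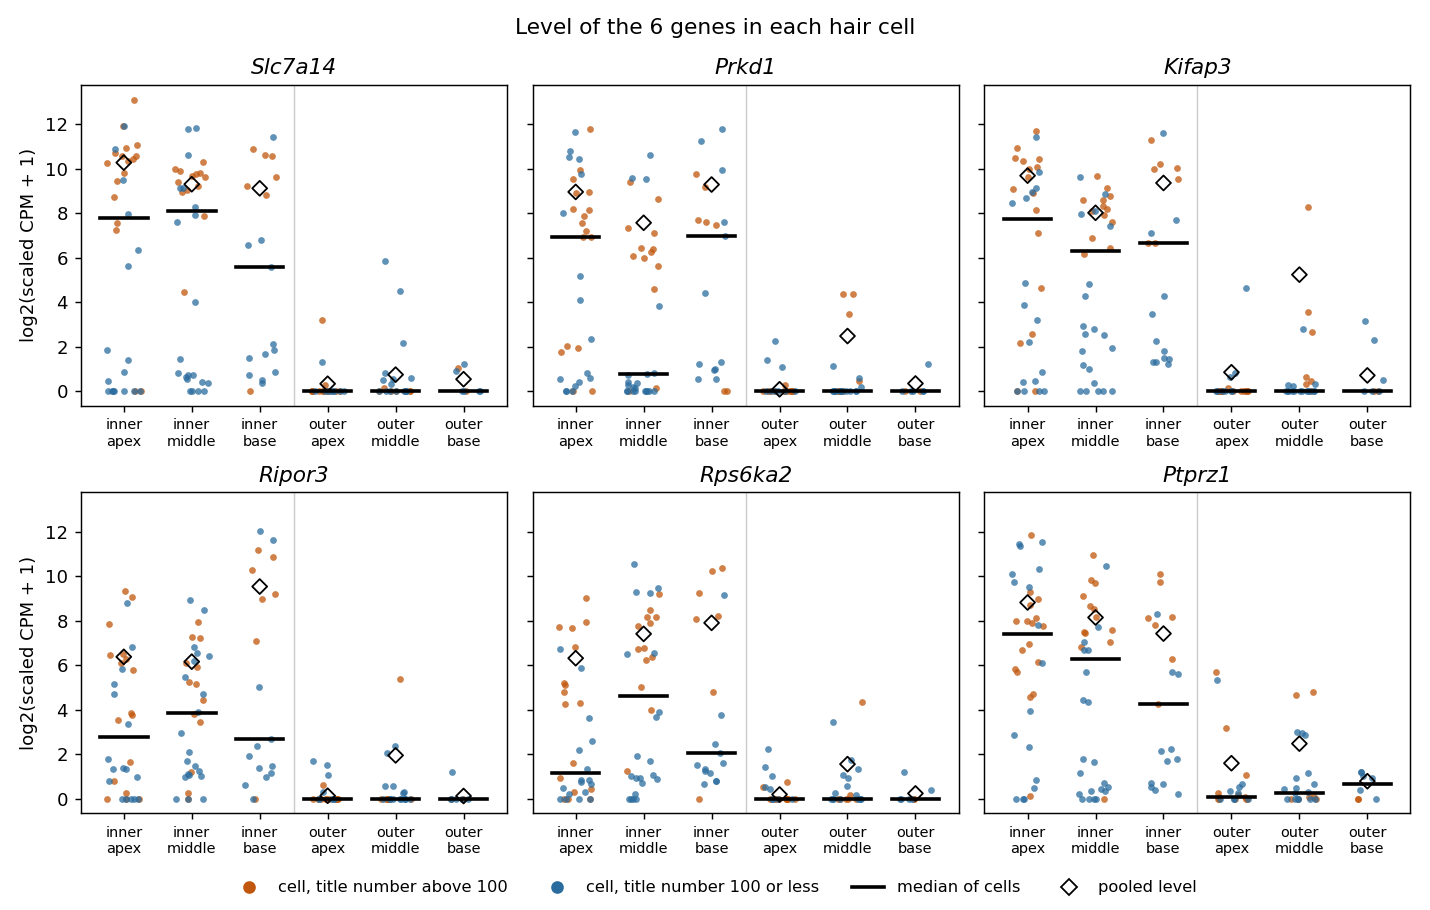
Each point is 1 cell, with its group on the x axis and log2 of (scaled CPM + 1) on the y axis; bars are medians of cells, diamonds are pooled levels, and colour gives the title-number series described below. IHCs spread from 0 to high levels within each region, and most OHCs lie at or near 0.

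All 6 genes were at least 2-fold higher in IHCs in each region, as the choice of members fixed. Of all 15214 genes, 31.1% were at least 2-fold higher in apical IHCs than OHCs, 26% in the middle pair and 44.1% in the basal pair, and 5.79% were so in all 3 regions against 1.87% lower in all 3. The mean log2 ratio over the regions was 9.03 for Slc7a14, 7.64 for Prkd1, 6.76 for Kifap3, 6.62 for Ripor3, 6.55 for Rps6ka2 and 6.51 for Ptprz1, beside a median of 0.34 for all genes. Without the 7 cells whose markers go against their labels the mean ratios were 9.07, 7.67, 6.79, 6.66, 6.57 and 6.49 in the same order. Among 328 genes that were at least 2-fold higher in IHCs everywhere, both pooled and as a mean over cells, and that had 10 CPM and reads in 50% of the cells of a group, Slc7a14 ranked 1 and Ptprz1 ranked 10. Otof, Slc17a8, Atp2a3 and Btg2 took the other places among the top 10, and the next gene, Ppp2r2b, had a mean ratio of 6.18. Btg2, an antiproliferative gene with early-response kinetics, had a ratio inside the range of the members and is not one of them.

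Per kilobase of exon, the order of the genes changed with the region. In apical IHCs Kifap3 was highest at 206 scaled CPM per kilobase, followed by Prkd1 at 136.2, Slc7a14 at 126.3, Ptprz1 at 31.8, Ripor3 at 19.4 and Rps6ka2 at 7.91. Ripor3 led in basal IHCs at 175.5, ahead of Prkd1 at 171.5 and Kifap3 at 164. Basal Ptprz1 was the lowest of the 6 at 12.02. No source used here says whether reads cover whole transcripts, and this order holds only if they do.

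A read of each gene was found in most IHCs and in fewer OHCs. Slc7a14 was read in 73 of 87 IHCs and 15 of 52 OHCs, Prkd1 in 70 and 12, Kifap3 in 76 and 17, Ripor3 in 73 and 13, Rps6ka2 in 75 and 19, and Ptprz1 in 79 and 31. Many of the OHC reads were single ones. At a level of 10 scaled CPM or more, the OHCs numbered 2 for Slc7a14, 2 for Prkd1, 3 for Kifap3, 1 for Ripor3, 1 for Rps6ka2 and 4 for Ptprz1. The IHCs at that level were 53, 46, 53, 44, 41 and 56 of 87.

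The shares were also taken at equal depth. After thinning to 582635 counts, which left 125 cells and so also changed the set of cells, Ptprz1 was read in 90% of apical, 71.9% of middle and 73.7% of basal IHCs, where the unthinned shares were 91.2%, 85.3% and 100%. For OHCs the Ptprz1 shares went from 57.1% to 21.1% in the apex, from 60.9% to 33.3% in the middle and from 62.5% to 0% of 7 cells in the base. Prkd1 was thinned to 53.1% of middle IHCs (95% interval 34.7% to 70.9%), against 76.7% in the apex (57.7% to 90.1%). These intervals overlapped. Across the 6 genes thinned shares lay between 53.1% and 90% in IHC groups and between 0% and 33.3% in OHC groups. Intervals cover counting error only.

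**Figure D2:**
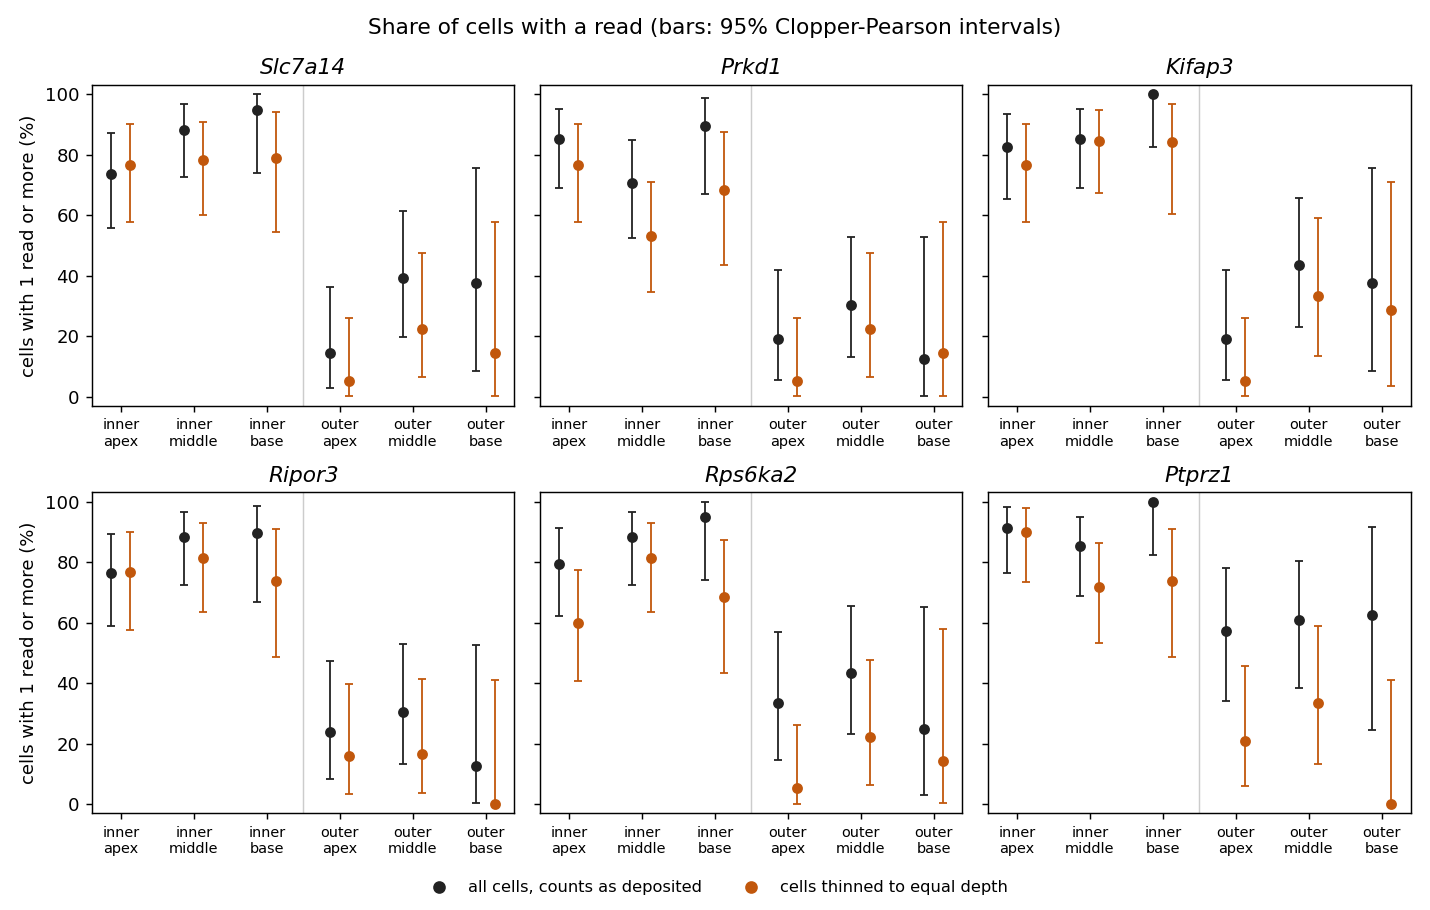
Percent of cells with 1 read or more of each gene (y axis) by group (x axis), before thinning in black and after thinning to equal depth in orange, with 95% Clopper-Pearson intervals. Thinned shares of every gene are at least 53.1% in IHC groups and at most 33.3% in OHC groups.

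Most IHCs held reads of several of the genes together. All 6 were read in 21 of 34 apical, 19 of 34 middle and 16 of 19 basal IHCs, and in 0 of 21, 1 of 23 and 0 of 8 OHCs. With a level of 10 scaled CPM asked of each gene, all 6 were found in 7, 9 and 5 IHCs and in 0 OHCs, and no OHC had more than 3. In 18 of 21 apical, 17 of 23 middle and 8 of 8 basal OHCs none of the 6 reached that level. Among IHCs that was so for 3 apical, 3 middle and 4 basal cells.

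The IHCs without the genes were not all cells without IHC markers. Basal IHC 19 had Otof at 10574 scaled CPM and all 6 genes between 0.298 and 1.64. Basal IHCs 13 and 17 had Otof at 284 and 295.6, and basal IHC 18 at 5.78. These 4 cells had 11639 to 14821 genes detected, against a median of 7616 in basal IHCs. Other IHCs without the genes had few genes detected. Apical IHCs 19 and 20 had Otof at 9814 and 1685 with 3146 and 2070 genes detected, against an apical median of 5506. Middle IHCs 15 and 17 had Otof at 366.9 and 567.7 with 1835 and 4516 genes detected, against a middle median of 6256. Middle IHC 30, with 27575 genes detected, had Otof at 2.20 and the 6 genes between 0.734 and 2.45. Apical IHC 22 had none of the 6 genes and no Otof among 103101 counts. Apical IHC 18 also had no Otof, but it is not one of the cells without the genes, as Ptprz1 stood at 55.6, its only member with a read.

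Levels of the genes varied together only loosely from IHC to IHC. Over 87 IHCs Pearson's r of log2(scaled CPM + 1) ran from 0.18 for Ripor3 with Ptprz1 to 0.53 for Slc7a14 with Kifap3. Kifap3 and Ptprz1 were an example of a pair that differed by region, with r of 0.03 among apical, 0.63 among middle and 0.53 among basal IHCs. The r with log2 of the total count ran from 0.18 for Ptprz1 to 0.51 for Kifap3, and the cells also share library and series, so these values are descriptions.

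By the numbers in their titles the cells fall into 2 series, 58 with numbers above 100 and 81 with numbers of 100 or less, and the levels differed between them. The labels do not say what the numbers mean. Slc7a14 had a median of 1306 scaled CPM in 17 apical IHCs of the higher series and 0.814 in 17 of the lower, 793.7 in 13 and 0.739 in 21 middle IHCs, and 796.6 in 7 and 2.44 in 12 basal IHCs. Medians of Kifap3 were 548.5 and 8.30 in the apex, 293.2 and 4.76 in the middle and 1008 and 3.14 in the base. At least 4 of the 6 genes reached 10 scaled CPM in 13 of 17 apical, 13 of 13 middle and 6 of 7 basal IHCs of the higher series, against 7 of 17, 5 of 21 and 2 of 12 in the lower. No cell of the lower series reached it for all 6. Median totals of the higher and lower series were 4820410 and 2121051 in apical IHCs, 7554356 and 3461676 in the middle, and 7120620 and 6688977 in the base, so depth was close in the base only. The part of the series in the spread was not tested. Within each series all 6 genes were at least 2-fold higher in IHCs in each region, an outcome favoured by their choice on the pooled level of the same cells. Only 2 basal OHCs are in the higher series.

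**Figure D3:**
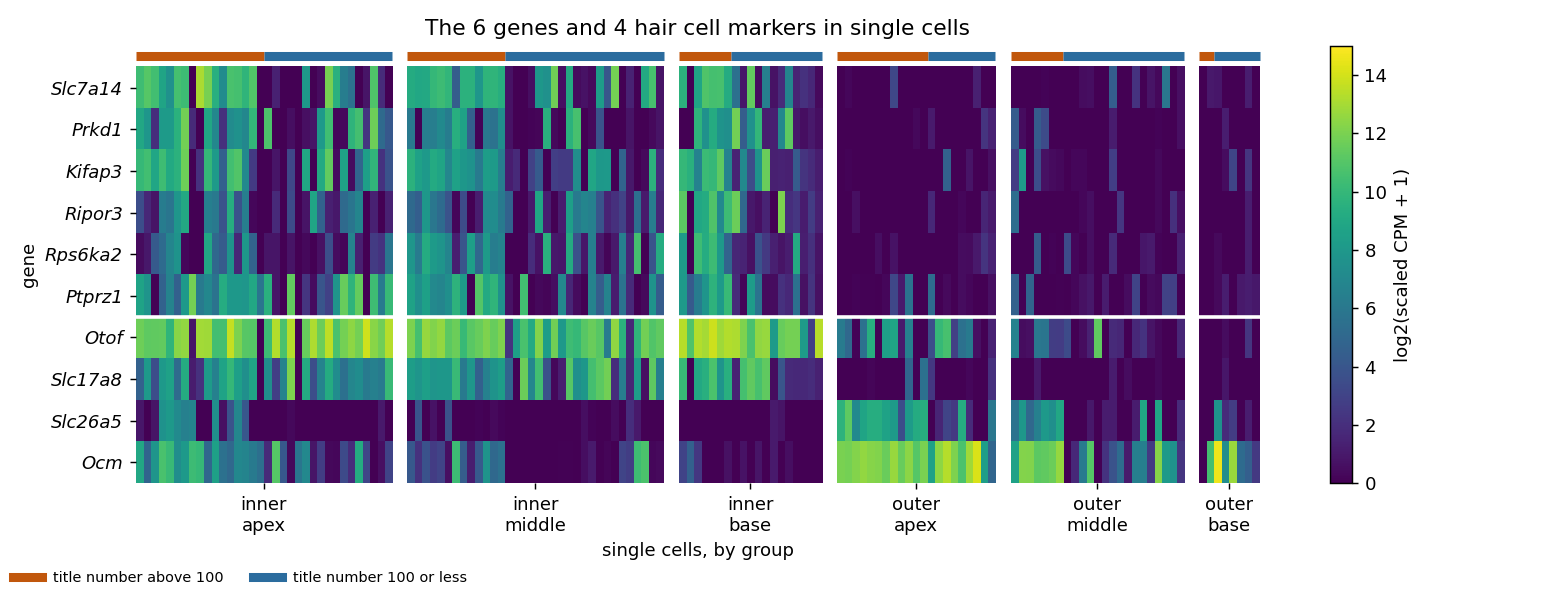
Each column is 1 cell, grouped by type and region and ordered by title-number series (bar on top), each row is a gene, and colour gives log2 of (scaled CPM + 1). The 6 genes fill most IHC columns of the higher series, are patchy in the lower series, and are dark in nearly all OHC columns. Ocm is bright in most apical OHCs and in middle OHCs of the higher series, and uneven in the other OHCs.

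Levels along the spiral within IHCs were not used to choose the genes. Pooled over the cells, 2 of the 6 were at least 2-fold higher in the base than in the apex, against 28.2% of all genes, and 2 were at least 2-fold lower, against 29%. With shares that near the background, the count says nothing particular about the 6. The log2 ratios of base to apex were 3.16 for Ripor3, 1.59 for Rps6ka2, 0.33 for Prkd1, -0.33 for Kifap3, -1.16 for Slc7a14 and -1.40 for Ptprz1, with a median of 0.00 over the 6 and 0 over all genes. Pooled Ripor3 and Rps6ka2 were higher in basal IHCs within both title-number series, by 2.43 and 1.56 in the higher and by 4.54 and 2.41 in the lower. The lower-series values rest on few cells. There, basal IHCs 8 and 14 held 35346 and 17500 of 53174 basal Ripor3 counts, and basal IHC 16 held 4942 of 5165 Rps6ka2 counts. Lower-series cell medians in apex and base were 1.55 and 2.32 for Ripor3 and 0.711 and 1.68 for Rps6ka2. The cell ranges of base and apex overlapped for each of the 6, and the 2 highest cells held at least 50% of the basal Ripor3 counts. The median cell did not follow the pooled level for Ripor3, at 5.86 in the apex and 5.44 in the base. Pooled Slc7a14 was lower in basal IHCs in both series, at -1.02 in the higher and -1.64 in the lower. In the lower series its median cell went the other way, at 0.814 in the apex and 2.44 in the base. There, basal IHC 10 held 13803 of 16209 basal counts and apical IHC 26 held 30238 of 48019 apical counts.

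For Ptprz1 and Prkd1 the ratio also rested on the series or on single cells. The Ptprz1 ratio was -0.03 in the higher series and -4.33 with the lower series alone, where its pooled level was 670.1 in apical, 65.98 in middle and 32.4 in basal IHCs. Prkd1 had a ratio of -1.09 with the higher series alone, 0.63 with the lower, and -0.10 with the cell of most counts left out of each group. Only Kifap3 lay within 2-fold under every setting tried, from -0.68 to -0.20.

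**Figure D4:**
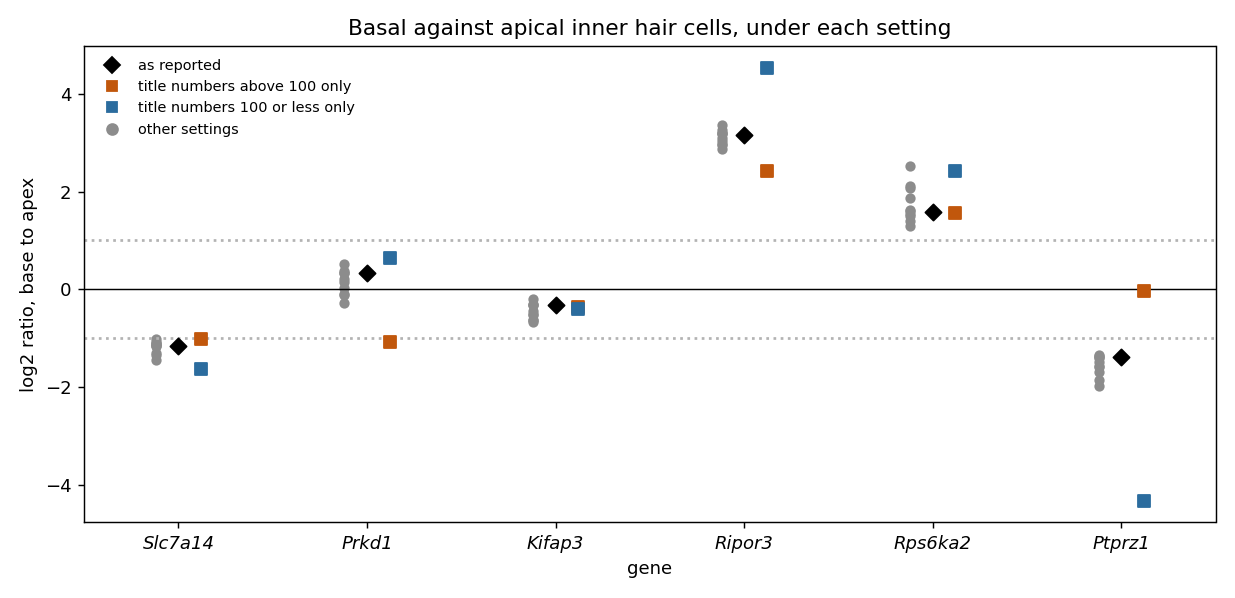
Log2 ratio of basal to apical IHCs (y axis) for each gene (x axis): the reported value as a diamond, each title-number series as a square and the other settings as grey points, with dotted lines at a 2-fold difference. Ripor3 and Rps6ka2 stay above 0 and Slc7a14 and Kifap3 below it under all settings shown, while Prkd1 lies on both sides and Ptprz1 is near 0 in the higher series.

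Middle IHCs had the lowest pooled IHC level of Prkd1, Kifap3 and Ripor3, the last by little against the apex. Against the apex, 1 of the 6 was at least 2-fold higher in the middle, Rps6ka2 at 1.10, against 26.3% of all genes, and 2 were lower, Kifap3 at -1.67 and Prkd1 at -1.39, against 24.2%. The Rps6ka2 value was 0.44 in the higher series, 3.68 in the lower and 0.94 with scaling by relative log expression, so it passed 2-fold only in some settings. Slc7a14 fell just short at -0.97, and its call also changed with the setting. It gave -1.34 with the higher series alone, -0.15 with the lower and -1.12 with scaling by relative log expression. Ripor3, at -0.22, gave -1.24 with the higher series alone and 1.74 with the lower, and its cell median was highest in the middle. Ptprz1, at -0.68, gave 0.57 with the higher series alone and -3.33 with the lower. Compared with the middle, the base had 3 of the 6 at least 2-fold higher, against 23.9% of all genes, and 0 lower, against 27.2%. Those 3 were Ripor3 at 3.38, Prkd1 at 1.72 and Kifap3 at 1.34. Prkd1 gave 0.40 with the higher series alone and 1.92 with the lower. Kifap3 gave 0.81 with total counts only and 0.88 when each group lost its deepest cell. The same region's OHCs were the ones with most counts of the genes, from 92 for Slc7a14 to 4996 for Kifap3.

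Relatives and pathway partners of the genes had a median ratio near that of all genes. Of 49 listed genes other than the 6 themselves, 41 passed the filter, 3 were at least 2-fold higher in IHCs in all regions, against 5.79% of all genes, and 1 was lower, against 1.87%, with a median mean log2 ratio of 0.19 beside 0.34 for all genes. Among the 3 were Nfasc (neurofascin), a cell adhesion molecule and relative of Ptprz1's binding partner Nrcam, at 3.74, 2.67 and 3.10 in apex, middle and base, and Pdpk1, a kinase that activates RSK kinases, at 1.73, 2.75 and 1.27. Plcb1, a phospholipase that makes diacylglycerol, was the 1 lower, at -2.23, -1.57 and -1.88.

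The other members of each family gave mixed values. Of the transporters, Slc7a1 had log2 ratios of 3.25, -1.13 and 1.67, and Slc7a4 of 0.13, 0.83 and 4.74. Prkd2 stood at 43.0, 15.4 and 21.7 scaled CPM in IHCs and at 29.3, 26.8 and 12.1 in OHCs, while Prkd3 reached 31.4 in middle IHCs at most. The kinesin-2 motor genes Kif3a and Kif3b, whose products bind the Kifap3 product, had log2 ratios near 0 in the apex, at 0.42 and -0.08, and of -0.90 and 0.04 in the middle and 4.38 and 2.81 in the base. Kif3c, another kinesin-2 motor gene, had ratios of 3.88, -0.22 and 2.71. Ripor2, the hair bundle relative of Ripor3, was at 160.9, 67.9 and 24.01 in IHCs and 72.5, 35.4 and 0.639 in OHCs, highest in the apex where Ripor3 was highest in the base. Rps6ka1 had ratios of 3.38, 1.53 and -0.75 and Rps6ka3 of -0.27, -0.86 and 0.34. Ptn, the ligand pleiotrophin, went the other way from its receptor gene Ptprz1, at 443.6, 421.7 and 690.5 in IHCs and 622.2, 1372 and 2404 in OHCs.

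**Figure D5:**
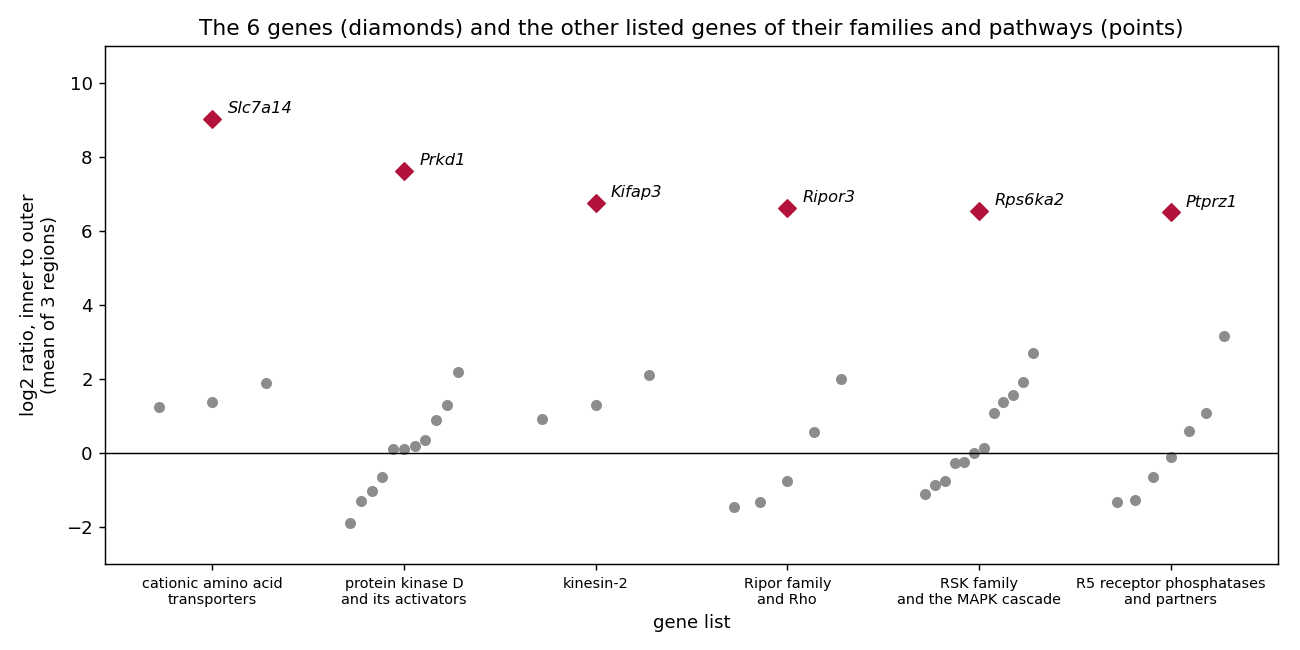
Mean log2 ratio of IHCs to OHCs over the 3 regions (y axis) for each gene list (x axis), with the 6 genes as diamonds and the other listed genes past the filter as points. The 6 genes were chosen for this ratio and lie from 6.51 to 9.03, and the highest of the others is Nfasc at 3.17.

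The genes most like each member over all cells are given as a description, since members chosen for a high level in IHCs will resemble other genes high in IHCs. Slc17a8, the vesicular glutamate transporter of IHCs, was the most alike to Kifap3 (r = 0.69) and Ptprz1 (r = 0.64), and Atp2a3, which encodes the SERCA3 calcium pump, was among the top 3 of Slc7a14, Kifap3, Ripor3 and Ptprz1. Fcrlb led for Prkd1 (0.64) and Ripor3 (0.59). AC166110.4, annotated by a clone name, led for Slc7a14 (0.67) and Rps6ka2 (0.72), and Rims2, an active zone gene, was also among the top 3 of Rps6ka2 (0.65). Among the 87 IHCs alone the same pairs had lower r, such as 0.51 for Kifap3 with Slc17a8 and 0.40 for Ptprz1 with Slc17a8. Each member was compared with 5724 genes, and the cells share library, series and depth.

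Markers of supporting cells were higher in IHCs than in OHCs of each region in sum. The 8 listed markers summed to 1327, 1006 and 480.7 pooled scaled CPM in IHCs of apex, middle and base and to 79.5, 323 and 187 in OHCs, an order along the IHCs of the spiral shared with Ptprz1 and Slc7a14 and opposite to Rps6ka2. Slc1a3 at 871.9, 447.6 and 171.5 and Gjb2 at 318.5, 450.3 and 254.2 made up most of it in IHCs. Sox2, a defining marker, was at 12.9, 5.98 and 3.29 in IHCs and 0.0181, 6.40 and 0.274 in OHCs, and Hes5 was at 0 in middle IHCs. Prox1 went the other way, at 0.561, 4.47 and 0.112 in IHCs against 10.6, 10.9 and 80.3 in OHCs, and Otoa was at 0.926, 5.29 and 0.736 against 7.58, 21.9 and 0.547. Over 87 IHCs the r of the summed level with the genes ran from 0.14 for Prkd1 to 0.33 for Ptprz1, and among basal IHCs from -0.21 for Prkd1 to 0.59 for Rps6ka2. Ptprz1 is also known from glia, whose 6 markers summed to less in IHCs than in OHCs of each region, at 711.6, 682.2 and 1440 against 864.1, 1833 and 6521. Connective tissue markers were also higher in OHCs of each region. The part of supporting cell RNA in the levels of the genes was not tested.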

How the data were processed

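The data are single-cell RNA libraries of 87 IHCs and 52 OHCs. Raw counts came in 1 table of 55335 genes deposited by the authors. The submitters' processing notes name Trimmomatic, HISAT2, featureCounts, Subread 1.4.6 and the build GRCm38 (mm10). The sources used here do not give the role of each tool, strandedness, the treatment of reads with several positions or the use of molecular identifiers. Columns were matched to samples by title, and 0 columns stayed unused.

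The counts of a group's cells were added up and scaled by TMM (edgeR 4.0.16) over 15214 genes with 5 CPM in 1 group or more. Single cells take their group's factor. Ratios are log2 of (scaled CPM + 1), which understates the change of low genes. Pooled levels have exact Poisson and shares Clopper-Pearson intervals at 95%, for counting error only. With 1 sample per group no test was made. To equal depth, cells were thinned to 582635 counts (percentile 10 of totals), which left 125. The 2 most alike cells had r = 0.75, so all cells were kept as separate ones. Apical IHCs 21 and 22 share the title number 17, with totals of 3478864 and 103101 counts and r = 0.19. At so low a total r cannot settle whether they are 1 cell, and the labels do not say. Only the log2 ratio was tried on simulated data, as Poisson counts of pooled groups. That simulation held no TMM scaling and no spread between cells, so those steps were not tested by it. The members, gene lists and rules were chosen with earlier results of these data known. Named genes are the 6 members, their listed relatives, cell type markers and, for each member, the 3 genes with the highest r over all cells among those with 10 CPM and reads in 50% of the cells of a group; Btg2 and Ppp2r2b were named after their values were seen. Alternatives were scaling, equal weight per cell, thinning, cells left out, title-number series, pseudocounts of 0.1 and 5 CPM and no filter. Leaving out the 7 cells whose markers go against their labels was chosen after seeing the data. One listed gene is not reported here.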

Additional observations from a re-analysis of the deposited data

Results flagged for a closer look

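Among the 8 basal OHCs, the highest cell stood far from the others for 3 of the genes. For Prkd1 this was basal OHC 4, at 1.32 scaled CPM from 3 counts, and the other 7 cells were at 0. For Ripor3 and Rps6ka2 it was basal OHC 7, at 1.32 scaled CPM from 1 count of each gene. That cell also had 1 count each of Slc7a14 and Ptprz1 and 3 of Kifap3. Basal OHC 3 held 1 count of Rps6ka2 as well, at 0.295 scaled CPM. Chance is taken to flag about 1 in 20 groups in this way. That rate was not tested for groups with as few as 1 to 3 counts, and groups of more than 10 cells were not examined.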

How the results depend on the processing

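All 6 genes were at least 2-fold higher in IHCs in each region under each of 12 alternatives, and the 72 mean log2 ratios under them ran from 4.75 to 10.5. The genes were chosen for a far higher pooled IHC level in these same cells, which favoured this outcome, so it is no separate support. The number of genes at least 2-fold different between basal and apical IHCs was 4 under all 12, and they were the same 4 genes under 11 of them. With title numbers above 100 only, Prkd1 took the place of Ptprz1. The base to apex ratio of Prkd1, 0.33 as reported, was below 0 under 4 alternatives: -0.11 with each cell counted alike, -0.29 with cells thinned to equal depth, -0.10 without the cell holding most counts of the gene in each group, and -1.09 with title numbers above 100 only; the cause was not tested. The scaling of basal OHCs is uncertain, with a factor of 0.384 by TMM, 0.179 by relative log expression and 0.703 with no filter. Asking for 5 reads left 0% of basal OHCs with any of the 6 genes. In that group the ratios rest on few reads, since Prkd1, Ripor3 and Rps6ka2 had 1 to 3 counts, and the cause was not tested. No paired analysis was possible because no label names an animal, the replicate numbers only name cells, and no result comes from a test.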
